A study of Homo sapiens with 6 samples.

Results

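The expressed ZNF genes are the genes whose symbol is ZNF followed by a number and whose mean level over 6 RNA-seq libraries reached 10 CPM, a count divided by the total count of its library and scaled to a common total. Of 57133 gene symbols, 556 had such a name, and 208 of these reached the limit. The members were chosen by their mean level over both groups, so their levels are given as a description. Since the mean spans both groups, a gene near the limit could enter through the group in which it was high. RNA was sequenced from T98G, an established human glioblastoma line. A single guide RNA had been used with Cas9 to knock CBX8 out (CBX8 KO), and transfected cells had been selected with puromycin. Into this knockout line a doxycycline-inducible TetOFUW vector had been delivered by lentivirus together with the rtTA activator, either empty (CBX8 KO, 3 libraries) or carrying wild-type CBX8 (WT CBX8 re-expression, 3 libraries), followed by selection of stable lines. All 6 libraries, controls included, share the CBX8 deletion, both vectors' selection and doxycycline at 1 μg/ml for 72 h, and no unedited T98G library was among the samples. The labels list the re-expression libraries as wild type, whereas the titles and the methods describe CBX8 put back into the knockout line. The sources do not say whether separate cultures were used for the 3 libraries of a group, so each SD and p-value describes the spread between libraries.

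ZNF genes encode proteins built from arrays of C2H2 zinc fingers, short folds that hold a zinc ion with a pair of cysteines and a pair of histidines and that read DNA or, in some proteins, RNA. Many carry a KRAB domain at the amino end, which recruits the corepressor TRIM28 and through it the H3K9 methyltransferase SETDB1 and HP1 proteins. KRAB genes lie in dense clusters, above all on chromosome 19, and many of them silence retroelements. CBX8 is a chromodomain subunit of Polycomb repressive complex 1, which acts at genes marked by H3K27me3, a silencing system separate from the KRAB pathway. The comparison asks how the RNA of the expressed ZNF genes differed when WT CBX8 was re-expressed in the knockout cells.

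Total counts per library ranged from 7950190 to 8659796, and 14461 genes passed the filter on low counts, all 208 expressed ZNF genes among them. CBX8 itself had 11.7 ± 0.94 CPM (SD, n = 3) in CBX8 KO and 3489 ± 156 CPM (SD, n = 3) upon re-expression, a log2 fold change of 8.22 (SE 0.08, the standard error, with edgeR's quasi-likelihood test giving adjusted p = 1.0e-30), so its direction matched the labels in all 6 libraries. Of 8 glial and mesenchymal markers, VIM, CD44 and FN1 were high (means from 542 to 2895 CPM), GFAP and OLIG2 lay between 1.78 and 3.22 CPM, NES was under 0.5 CPM in every library, and S100B and SOX2 had no count. CD44 was lower upon re-expression (log2 fold change -0.21, adjusted p = 0.0097) and FN1 was higher (0.22, adjusted p = 0.0031). Of 8 markers of other cell types, SYT1 had means of 3.19 and 3.79 CPM in KO libraries and re-expression, and the other 7 had means under 0.5 CPM. Their part in the results below was not tested, and in bulk RNA fewer cells of a type and less RNA per cell cannot be told apart.

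Here and below a log2 fold change is WT CBX8 re-expression minus CBX8 KO, CPM uses library sizes scaled by edgeR's trimmed mean of M-values (TMM), and a gene is called where its p-value from edgeR's quasi-likelihood test, adjusted by Benjamini and Hochberg over all 14461 genes (FDR), is under 0.05. Of the 208 expressed ZNF genes, 9 were lower and 7 were higher upon re-expression, 16 in all or 7.69%. Over all tested genes 12.9% were called, 6.63% lower and 6.23% higher, and over the 9764 tested genes with a mean of at least 10 CPM the share was 16.0%, 9.07% lower and 6.92% higher. The median log2 fold change of the ZNF genes was -0.0026, beside 0.0049 over all tested genes, and their range was -0.35 to 0.64. Of the 208, 107 lay below 0 and 101 above. Groups did not overlap for 42 ZNF genes (20.2%), 27 with all re-expression libraries below all CBX8 KO libraries and 15 above, beside 28.9% of all tested genes (14.4% below and 14.4% above) and 32.7% of those with at least 10 CPM (18.4% below and 14.3% above). A single ZNF gene, ZNF462, changed by more than 1.5-fold.

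Summed over the 208 genes, CBX8 KO libraries had 6420, 6282 and 6288 CPM and re-expression libraries had 6216, 6168 and 6281 CPM. The highest re-expression sum was next to the lowest CBX8 KO sum, and the means were 6330 ± 77.7 and 6222 ± 56.6 CPM (SD, n = 3). As a plain share of counts, without TMM, the order turned, with 0.622, 0.618 and 0.618% in CBX8 KO and 0.640, 0.624 and 0.634% in re-expression libraries. Most members were bounded at 0.5, which is larger than the log2 fold change of most called members, and at 0.25 most were not. For the 192 ZNF genes not called, the median half-width of the 95% confidence interval of the log2 fold change was 0.22, and for 180 of them the whole interval lay within 0.5 of 0, while for 48 it lay within 0.25.

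The sequences before the start sites show how the promoters of these genes differ in their letters. RefSeq promoters (GRCh38.p14) were found for 180 of the 208, and 4 motifs were searched on both strands in the 300 bases from 250 before to 50 after the start. An ETS motif (CCGGAA, read as TTCCGG on the other strand) was in 56.1% of the ZNF promoters, in 33.0% of the 7448 promoters of tested genes with at least 10 CPM and in 17.6% of all 27305 promoters. Printed here are the 250 bases before the start, 5′ to 3′ on the strand of the gene, of ZNF503 (chr10:75401917-75402166, minus strand), the called member with the lowest log2 fold change, of ZNF384 (chr12:6689376-6689625, minus strand), a called member with 3 ETS matches, of ZNF431 (chr19:21141790-21142039, plus strand) and ZNF514 (chr2:95159586-95159835, minus strand), the 2 called members with a KRAB domain, and of ZNF202 (chr11:123741661-123741910, minus strand), a KRAB gene that was not called and was chosen after its matches were seen. Capitals mark ETS matches and SP1 matches (GGGCGG, or CCGCCC on the other strand).
ZNF503: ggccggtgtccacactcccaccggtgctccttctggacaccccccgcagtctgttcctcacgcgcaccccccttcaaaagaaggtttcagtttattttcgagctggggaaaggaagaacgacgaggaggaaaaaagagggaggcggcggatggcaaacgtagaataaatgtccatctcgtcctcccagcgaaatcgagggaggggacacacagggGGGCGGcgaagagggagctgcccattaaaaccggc
ZNF384: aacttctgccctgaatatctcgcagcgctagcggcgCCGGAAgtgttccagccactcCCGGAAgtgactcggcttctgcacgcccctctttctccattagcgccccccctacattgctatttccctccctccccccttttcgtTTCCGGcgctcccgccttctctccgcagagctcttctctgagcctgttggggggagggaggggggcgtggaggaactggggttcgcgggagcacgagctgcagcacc
ZNF431: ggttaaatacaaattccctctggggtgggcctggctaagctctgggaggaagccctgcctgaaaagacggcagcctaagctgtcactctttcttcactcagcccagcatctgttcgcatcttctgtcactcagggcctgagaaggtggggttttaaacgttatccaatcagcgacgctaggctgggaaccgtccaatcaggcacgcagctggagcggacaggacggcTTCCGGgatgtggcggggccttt
ZNF514: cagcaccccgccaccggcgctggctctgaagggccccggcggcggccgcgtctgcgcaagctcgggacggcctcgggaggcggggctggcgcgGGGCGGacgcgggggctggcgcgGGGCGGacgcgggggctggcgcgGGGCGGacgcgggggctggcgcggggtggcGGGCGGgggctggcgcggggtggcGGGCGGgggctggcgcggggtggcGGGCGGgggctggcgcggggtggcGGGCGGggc
ZNF202: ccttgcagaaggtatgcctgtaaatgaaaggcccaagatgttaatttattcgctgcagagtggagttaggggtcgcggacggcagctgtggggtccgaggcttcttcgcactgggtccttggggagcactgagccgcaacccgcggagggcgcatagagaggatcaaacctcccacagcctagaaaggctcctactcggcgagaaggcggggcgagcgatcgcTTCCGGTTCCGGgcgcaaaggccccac

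The ETS match in ZNF431 lies near the start, and ZNF202, a SCAN and KRAB repressor of lipid metabolism genes, has 2 such matches joined end to end near its start. ZNF514 has 7 SP1 matches, each forward, most of them in a repeated unit of the sequence, and no ETS match. Among ZNF genes with a KRAB domain, 60 of 90 promoters (66.7%) held the ETS motif, and among those without, 41 of 90 (45.6%). For chromosome 19 the share was 44 of 66 (66.7%), and for the promoters of other zinc finger families (ZBTB, ZFP, ZKSCAN, ZSCAN and PRDM genes with at least 10 CPM) it was 20 of 42 (47.6%). The SP1 motif was less frequent in KRAB promoters than in the other ZNF promoters or those of genes at that level, and more frequent than in all promoters, with 58.9% of KRAB promoters, 67.8% of ZNF promoters without KRAB, 72.3% of the promoters of genes with at least 10 CPM and 44.6% of all promoters. The core of the YY1 motif (ATGGCG) was in 20.6% of ZNF promoters and 20.4% of those of genes with at least 10 CPM, and the core of the NRF1 motif (CATGCGC) was in 10.0% and 8.42%. Of the called members, 2 of the 6 promoters found for lower genes and 2 of the 6 found for higher genes held the ETS motif. A match is a run of letters in this window and says nothing of binding.

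**Figure D1:**
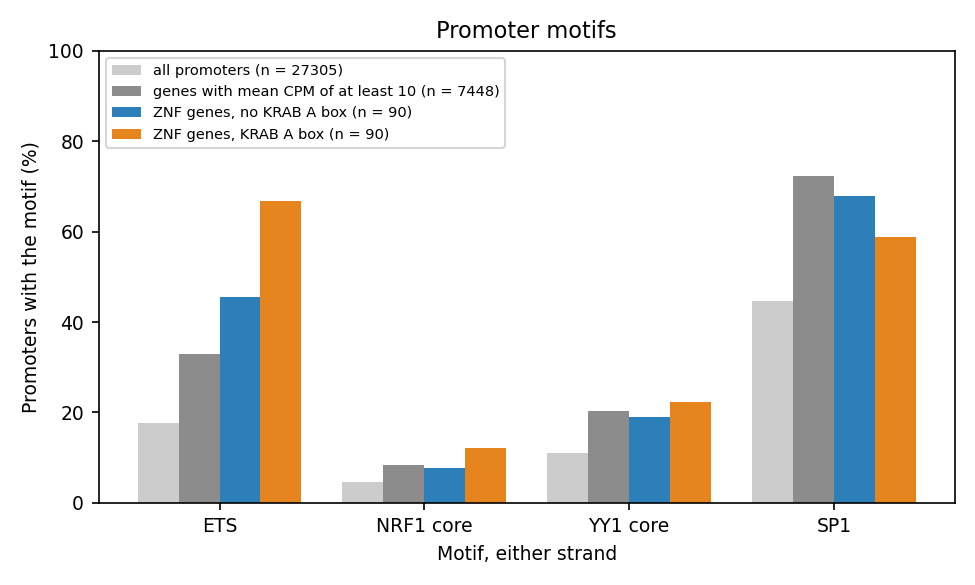
Share of RefSeq promoters, in percent, that held each of 4 motifs on either strand, for all promoters, for tested genes with a mean of at least 10 CPM, and for expressed ZNF genes without and with a KRAB A box. The ETS motif was in 66.7% of KRAB promoters, the highest of the 4 bars, while the SP1 motif was in 58.9% of them, below the 72.3% of genes at that level.

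Members in which a KRAB A box was found and members in which none was found differed in level. A KRAB A box was found in the translated canonical transcript of 99 members and not in 105, and the other 4 had no coding sequence or no match in the annotation. Members called without KRAB are those 105. A divergent box under the cut of 12 of 21 conserved positions would be missed, and ZNF394 and ZNF496 matched 10. Mean CPM over the libraries had a median of 16.2 for KRAB genes, none of which passed 40.6 CPM, and of 27.2 for the others. Per kilobase of transcript the medians were 3.87 and 7.04 CPM. KRAB proteins had a median of 12 C2H2 fingers and their transcripts a median GC content of 42.4%, against 7 fingers and 51.5% for members without KRAB.

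Of the 99 KRAB genes, 0 were lower and 2 were higher upon re-expression (2.02%, beside 12.9% of all tested genes). An unadjusted p under 0.05 was found for 11 of the 99, beside 3662 of all 14461 tested genes. DESeq2 called 1 of the KRAB genes, higher, and limma voom called 2, both higher. Their median log2 fold change was 0.0080 and their range -0.34 to 0.53. ZNF514, called and higher, had a mean of 9.82 CPM in CBX8 KO and entered through the group in which it was high. Of the 105 members without KRAB, 9 were lower and 5 higher (13.3%), with a median of -0.02. The 2 groups differed in level as well, and the number of calls rose with level. Among members of 10 to 20 CPM, 1 of 69 KRAB genes and 1 of 37 others were called, and among those of 20 to 40 CPM, 1 of 29 KRAB genes and 3 of 32 others. Of all tested genes, 11.1% were called at 10 to 20 CPM and 9.68% at 20 to 40 CPM. Above 40 CPM, where 10 of 36 members without KRAB were called, there was 1 KRAB gene, ZNF621, which was not called. In summed CPM, the KRAB genes had 1799 ± 43.5 in CBX8 KO and 1799 ± 27.6 upon re-expression, while the members without KRAB had 4441 ± 39.0 and 4331 ± 37.7 (SD, n = 3). Abundant genes weigh most in such a sum, and ZNF207 alone had means of 433 and 388 CPM. For 91 of the 97 KRAB genes not called, the 95% interval lay within 0.5 of 0. The count of 0 lower KRAB genes depended on the processing, and over the alternatives it ranged from 0 to 4. With GC content and transcript length both corrected for, ZNF213, ZNF689, ZNF746 and ZNF777 were lower and 2 KRAB genes were higher.

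Set against all tested genes of the same level, ZNF genes of 10 to 20 CPM were called in 2 of 107 cases (1.87%, with 11.1% of 2043 tested genes) and those of 20 to 40 CPM in 4 of 64 (6.25%, with 9.68% of 2438). Above 40 CPM the ZNF share was 10 of 37 (27.0%, with 20.8% of 5283), of which 7 were lower. Thus 10 of the 16 called members came from the 37 most abundant. These shares are descriptions and carry no test.

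**Figure D2:**
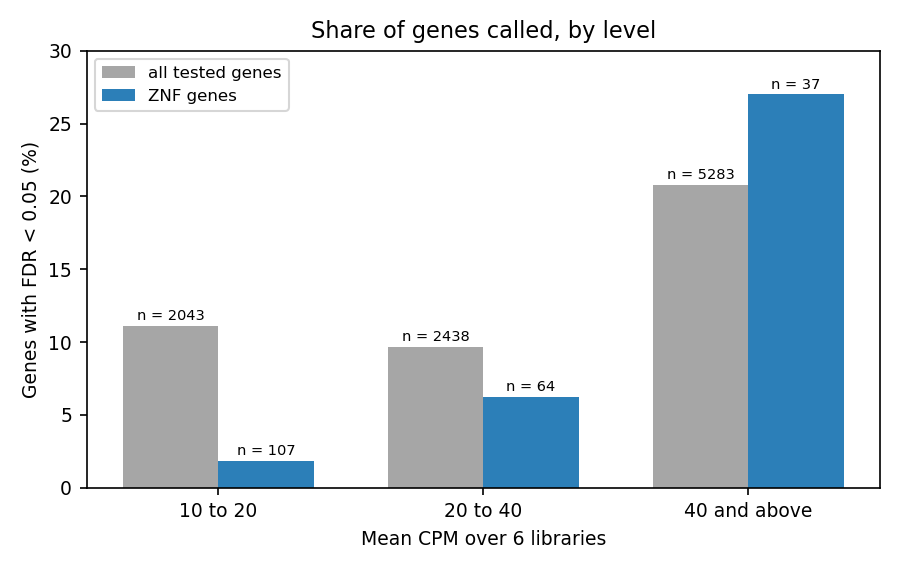
Share of genes called at FDR < 0.05, in percent, for all tested genes and for expressed ZNF genes in 3 ranges of mean CPM, with the number of genes above each bar. The ZNF share was 1.87% at 10 to 20 CPM and 27.0% at 40 CPM and above.

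**Figure D3:**
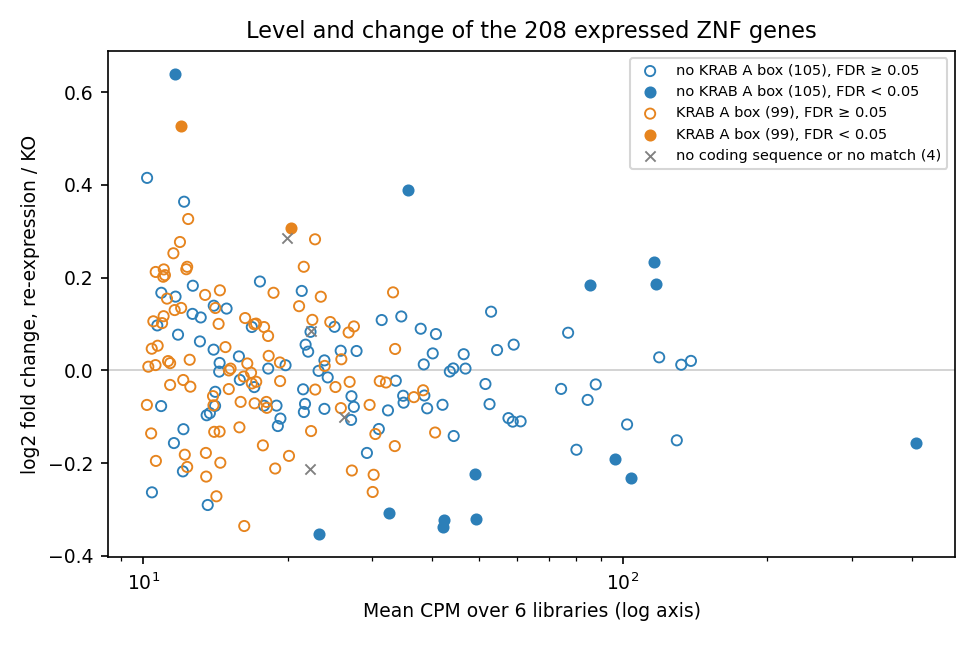
Log2 fold change of each of the 208 expressed ZNF genes against its mean CPM over the 6 libraries on a log axis, coloured by KRAB A box, with called genes filled. KRAB genes lie between 10.2 and 40.6 CPM, and called genes are spread over both sides of 0, from -0.35 to 0.64.

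The 9 lower members had neither a KRAB A box nor a place on chromosome 19. ZNF503, a corepressor of the NET family known for its part in striatal and motor neuron development, lies on chromosome 10 (hg38, 75397830 to 75401764, minus strand). It had 25.5, 24.5 and 28.5 CPM in KO libraries and 21.6, 20.3 and 19.4 CPM after re-expression, so that the groups did not overlap. Its log2 fold change was -0.35 (SE 0.10, adjusted p = 0.016), a fall of 21.7%. No C2H2 finger was found in it with the pattern used, since this family carries a single atypical finger. Its exons overlap those of ZNF503-AS2, which had 13 to 33 counts a library and a log2 fold change of -0.26 (adjusted p = 0.65). The other member of the NET family, ZNF703, a gene amplified in luminal breast cancer, had 137 ± 7.05 and 123 ± 7.25 CPM (SD, n = 3), a log2 fold change of -0.15 that missed the threshold (adjusted p = 0.080). It passed with GC content and length corrected for (-0.24, adjusted p = 0.00095), without the count filter (-0.16, adjusted p = 0.049) and without re-expression replicate 1 (-0.20, adjusted p = 0.031).

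ZNF395, a factor induced by hypoxia that binds the promoter of the Huntington disease gene, had 46.7, 49.9 and 45.3 CPM in KO libraries and 37.3, 37.8 and 37.3 CPM after re-expression. All 3 re-expression libraries lay close together and below every CBX8 KO library. The log2 fold change was -0.34 (SE 0.08, adjusted p = 0.0029). ZNF395 lies on chromosome 8 (28345590 to 28402701), and FBXO16, whose exons overlap its own, had 17 to 41 counts and a log2 fold change of 0.45 (adjusted p = 0.26). ZNF469 (chromosome 16, 88382959 to 88440757), a very large protein in which recessive variants cause brittle cornea syndrome, had 43.5, 47.1 and 51.1 CPM against 36.3, 37.2 and 39.8 CPM. Again the groups did not overlap, with a log2 fold change of -0.32 (SE 0.08, adjusted p = 0.0070), and no other annotated gene shares its exons. With GC content and length corrected for it was -0.53.

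ZNF488 (chromosome 10, 47365496 to 47384293), a repressor that works with OLIG2 in oligodendrocyte differentiation, had 55.4, 53.7 and 56.3 CPM in KO libraries and 42.4, 47.1 and 42.9 CPM after re-expression. The gap between the groups was wider than the spread within either, and the log2 fold change was -0.32 (SE 0.07, adjusted p = 0.0026). OLIG2 itself was low in these cells, at 1.78 and 3.22 CPM. ZNF608 (chromosome 5, 124636913 to 124748807), a paralog of ZNF609, had 39.4, 34.7 and 34.4 CPM against 31.2, 28.7 and 27.9 CPM. Its highest value came from CBX8 KO replicate 1, and its log2 fold change was -0.31 (SE 0.09, adjusted p = 0.022). The call of ZNF608 was lost in 5 of 17 refits.

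ZNF532 (chromosome 18, 58862600 to 58986480) binds the chromatin reader ZMYND8 together with ZNF592 and ZNF687 and is a fusion partner of NUTM1 in NUT carcinoma. It had 110, 114 and 113 CPM in KO libraries and 91.8, 93.2 and 103 CPM after re-expression, a log2 fold change of -0.23 (SE 0.06, adjusted p = 0.0057). Replicate 3 of the re-expression group was closest to CBX8 KO, without overlap. Its partners did not pass the test, with log2 fold changes of -0.03 for ZNF592 (adjusted p = 0.81) and -0.13 for ZNF687 (adjusted p = 0.44).

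Among genes for DNA binding activators and looping factors, 1 of 7 members was called, beside 12.9% of all tested genes and 16.0% of those with at least 10 CPM. The called member was ZNF384 (chromosome 12, 6666477 to 6689572), a nuclear matrix associated factor rearranged in some acute leukaemias, with 99.5, 102 and 108 CPM against 90.5, 84.9 and 95.8 CPM. The groups lay close but apart, and the log2 fold change was -0.19 (SE 0.06, adjusted p = 0.028). The call was lost in 6 of 17 refits, among them DESeq2 (adjusted p = 0.083). The other 6 (ZNF143, ZNF76, ZNF148, ZNF281, ZNF263 and ZNF335) had log2 fold changes from -0.09 to 0.19. ZNF143 and ZNF76, related activators that bind many promoters, were at 22.4 ± 0.89 and 16.3 ± 2.45 CPM in KO libraries and 21.0 ± 0.81 and 18.7 ± 2.97 CPM after re-expression (SD, n = 3).

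ZNF22 (chromosome 10, 45000923 to 45005326), a small protein also known as KROX-26 and studied in tooth development, had 55.9, 50.02 and 53.9 CPM in KO libraries and 46.2, 45.0 and 45.6 CPM after re-expression. The re-expression values spanned little more than 1 CPM, and the log2 fold change was -0.22 (SE 0.07, adjusted p = 0.035). The call was lost in 10 of 17 refits, among them DESeq2 (adjusted p = 0.12) and the fit with GC content and length corrected for (-0.15, adjusted p = 0.13). Exons of CEP164P1, which had 185 to 217 counts a library beside 383 to 443 for ZNF22, overlap its own, and its log2 fold change was -0.11 (adjusted p = 0.53). With ZNF503 and ZNF488, ZNF22 made 3 lower members among the 8 on chromosome 10. Over all tested genes 6.63% were lower, and over those with at least 10 CPM 9.07%. The call of ZNF503 was lost in 4 of 17 refits.

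Of 9 members that act on RNA, ribosomes or the spindle, 1 was lower, 2 were higher and 6 did not pass, beside 12.9% of all tested genes called and 20.8% of those above 40 CPM. ZNF207 (chromosome 17, 32350132 to 32381885), the microtubule protein BuGZ that binds BUB3 at kinetochores, was the member with most counts. It had 447, 432 and 419 CPM in KO libraries and 382, 379 and 404 CPM after re-expression, a fall of 10.3% (log2 fold change -0.16, SE 0.05, adjusted p = 0.032), but with scaling by library size only the value was -0.10 and the call was lost (adjusted p = 0.17). ZNF638 (chromosome 2, 71276561 to 71435069), a nuclear RNA binding protein that also helps to silence unintegrated retroviral DNA, went the other way. Its values were 83.4, 81.3 and 75.6 CPM against 93.7, 90.6 and 89.1 CPM, with a log2 fold change of 0.19 (SE 0.06, adjusted p = 0.031). The call of ZNF638 was lost in 7 of 17 refits, among them DESeq2 (adjusted p = 0.13), and that of ZNF207 in 6.

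ZNF106 (chromosome 15, 42412823 to 42491141), an RNA binding protein of splicing complexes, had 106, 111 and 103 CPM in KO libraries and 115, 121 and 140 CPM after re-expression. Re-expression replicate 3 was well above the other two, and the log2 fold change was 0.23 (SE 0.06, adjusted p = 0.012). Without that library it was 0.15 and the call was lost (adjusted p = 0.13). ZNF598, the ubiquitin ligase that marks collided ribosomes, had 85.0 ± 3.62 and 75.5 ± 3.98 CPM (SD, n = 3), a log2 fold change of -0.17 with an adjusted p of 0.059, and it passed with GC content and length corrected for. The remaining 5 genes of this list lay between -0.09 and 0.03.

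Of 3 members that partner with corepressors or the H3K9 methyltransferases G9a and GLP, 2 were higher, beside 6.23% of all tested genes, and 1 of the 2, ZNF462, reached the level limit through the group in which it was high. ZNF217 (chromosome 20, 53567071 to 53609907), an oncogene product that binds CtBP and the LSD1 and CoREST complex, had 114, 108 and 108 CPM in KO libraries and 124, 131 and 120 CPM after re-expression. The log2 fold change was 0.19 (SE 0.05, adjusted p = 0.022), and the call was lost in 4 of 17 refits. ZNF462 (chromosome 9, 106863166 to 107013634), a partner of GLP and WIZ whose loss of 1 copy causes Weiss-Kruszka syndrome, rose most among the members. It had 9.97, 7.60 and 9.73 CPM in KO libraries and 13.1, 14.2 and 15.2 CPM after re-expression, a rise of 55.8% (log2 fold change 0.64, SE 0.13, adjusted p = 0.0014). The third, ZNF644, which recruits G9a and GLP, had 74.8 ± 7.09 and 79.2 ± 3.64 CPM and a log2 fold change of 0.08 (adjusted p = 0.48).

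The 2 KRAB genes that were called were both higher. ZNF431 (chromosome 19, 21142024 to 21196053), with 12 fingers, had 18.6, 17.4 and 18.7 CPM in KO libraries and 21.7, 23.1 and 22.6 CPM after re-expression. The groups were tight and apart, with a log2 fold change of 0.31 (SE 0.10, adjusted p = 0.040), but the call was lost without any 1 of the 6 libraries. ZNF514 (chromosome 2, 95122087 to 95165668), with 7 fingers, had 9.84, 9.62 and 9.98 CPM against 15.5, 15.1 and 11.8 CPM. Re-expression replicate 3 stood between CBX8 KO and the other two, and the log2 fold change was 0.53 (SE 0.13, adjusted p = 0.0068). ZNF2, which shares exonic sequence with it in the annotation, had 37 to 69 counts and a log2 fold change of 0.19 (adjusted p = 0.57).

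ZNF83 (chromosome 19, 52594060 to 52690559), with 14 fingers and no KRAB A box, had 32.3, 31.4 and 28.8 CPM in KO libraries and 43.4, 35.9 and 42.0 CPM after re-expression. Its lowest re-expression value was above the highest CBX8 KO value, and its log2 fold change was 0.39 (SE 0.09, adjusted p = 0.0037). ZNF462 and ZNF514 had means under 10 CPM in KO libraries and entered through the group in which they were high. Among the 201 members with at least 10 CPM in both groups, 9 were lower and 5 higher, or 6.97%. Over all tested genes the share was 12.9%, and over those with a mean of at least 10 CPM 16.0%.

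**Figure D4:**
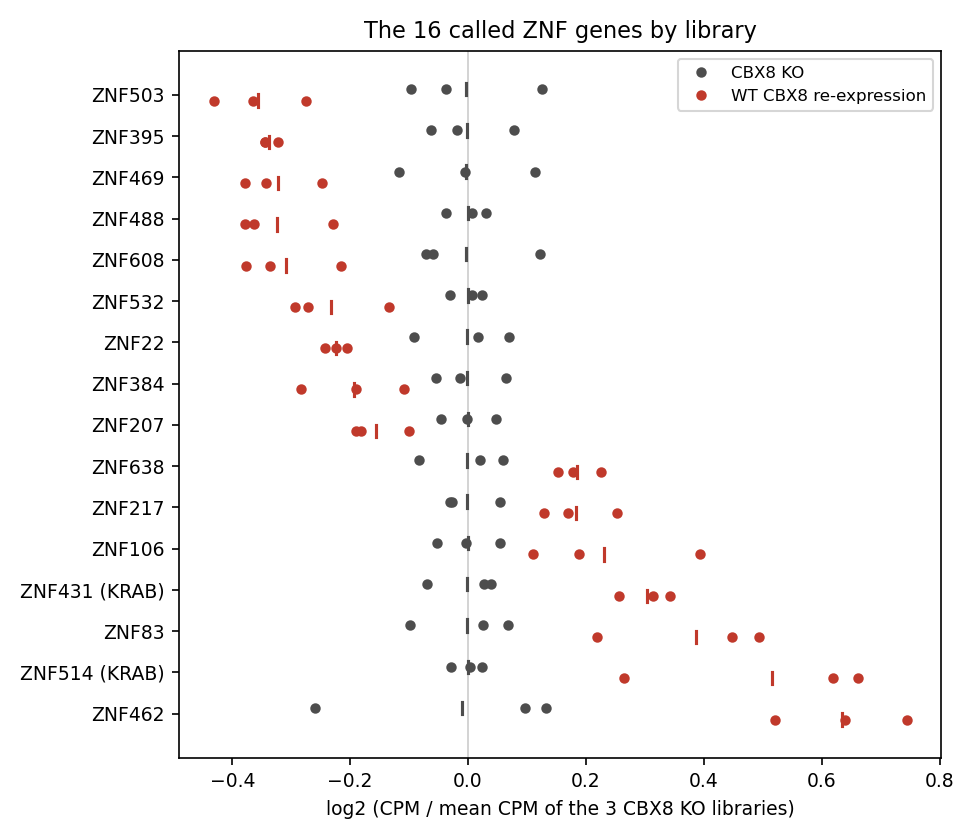
Log2 of the CPM of each library over the mean CPM of the 3 CBX8 KO libraries, for the 16 called ZNF genes, with a vertical mark at the mean of each group. In all 16 the 3 re-expression libraries lie on one side of the 3 CBX8 KO libraries, below them in the upper 9 genes and above them in the lower 7.

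Some calls depended on 1 library. Without re-expression replicate 2, 9 ZNF genes were called (4 lower, 5 higher), 6 of them among the 16, and ZNF207, ZNF217, ZNF22, ZNF384, ZNF431, ZNF503, ZNF514, ZNF532, ZNF608 and ZNF638 lost the call. Without CBX8 KO replicate 3, 10 were called (7 lower, 3 higher), and ZNF106, ZNF217, ZNF22, ZNF384, ZNF431, ZNF503 and ZNF638 lost the call. With each of the other 4 libraries left out in turn, 11 to 14 were called, and only ZNF395, ZNF469, ZNF488, ZNF532, ZNF83, ZNF514 and ZNF462 kept the call in all 4 of those fits. Calls over all genes fell as well. With all 6 libraries 959 were lower and 901 higher, without re-expression replicate 2 635 and 593, and without CBX8 KO replicate 3 851 and 763. ZNF395, ZNF469, ZNF488, ZNF83 and ZNF462 kept the call in all 17 refits, other scalings, filters and tools included, in which each direction held for all 16. Exons of 5 of the 9 lower and of all 7 higher members overlap an annotated gene, as do those of 108 of the 206 members found in the annotation. The counting program and its strand setting are not given in the sources used here, so reads of such pairs cannot be told apart.

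Another 17 ZNF genes had an unadjusted p under 0.05 and missed the adjusted threshold, 9 of them KRAB genes, and those with values here were chosen after their values were seen. With the called members, 33 of the 208 ZNF genes had such a p. Over all tested genes it was 3662 of 14461, and over those with at least 10 CPM 2876 of 9764. ZNF254, a KRAB gene of chromosome 19, had 20.6, 18.9 and 15.1 CPM in CBX8 KO against 12.7 to 15.6 CPM, with overlapping groups and a log2 fold change of -0.34 (adjusted p = 0.072 by edgeR's quasi-likelihood test). It was called lower without the count filter and without CBX8 KO replicate 3. ZNF689, a KRAB gene of chromosome 16, had 32.4, 33.3 and 32.4 CPM against 27.2, 29.0 and 27.7 CPM, groups that did not overlap, and a log2 fold change of -0.23 (adjusted p = 0.093). ZNF337, a KRAB gene of chromosome 20, had 19.3, 21.2 and 21.3 CPM against 26.9, 22.5 and 25.7 CPM, again without overlap (0.28, adjusted p = 0.065). Among members whose sequence is shared with a near copy, ZNF286A had 38.6% of its transcript windows of 100 bases in ZNF286B or FOXO3B, and ZNF587 had 14.7% in ZNF417, so their counts are uncertain, and neither was called.

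Members with other domains and functions gave few or no calls, beside 12.9% of all tested genes called. Of the 13 SCAN domain members, which pair with one another through that domain, 0 passed edgeR's test, 1 had an unadjusted p under 0.05, and the range was -0.27 (ZNF213) to 0.22 (ZNF274). The 4 members known to act on retroelements, imprints or ZNF clusters did not pass either. ZNF91, which represses SVA elements, had 19.96 ± 1.48 and 23.3 ± 1.10 CPM (SD, n = 3), a log2 fold change of 0.22 (adjusted p = 0.15). ZNF93, which represses LINE-1 elements, stood at -0.01 (adjusted p = 0.96), ZNF274, which brings SETDB1 to the 3′ ends of ZNF genes, at 0.22 (adjusted p = 0.30), and ZNF445, which guards imprints, at 0.17 (adjusted p = 0.22).

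The calls were spread over 12 chromosomes. On chromosome 19, which held 72 members, 0 were lower and 2 were higher, with a median log2 fold change of 0.02, while on the other chromosomes 9 of 134 were lower and 5 higher, with a median of -0.02. The count of 0 lower on chromosome 19 depended on the processing, since ZNF254 was called lower in some refits. Over all tested genes with at least 10 CPM, 9.07% were lower and 6.92% higher. KRAB genes made up 51 of the 72. ZNF genes were joined into runs where 3 or more lay within 250 kb of each other in turn, which gave 31 runs, 28 with members and 107 members in all. In 0 of the runs were 2 or more members called. The run with most ZNF genes, at the end of the long arm of chromosome 19 (57191500 to 58481230), had 43 ZNF genes and 15 members. None of the 15 was called, and 11 lay above 0 and 4 below, with a median of 0.11 and a range of -0.21 to 0.22. The next run (51571283 to 53580269) had 39 ZNF genes and 13 members, with ZNF83 the called gene and a median of -0.04.

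By number of fingers, 1 of 3 members with 0 matches to the pattern, 6 of 34 with 1 to 4, 5 of 65 with 5 to 9, 3 of 60 with 10 to 14 and 1 of 42 with 15 or more were called. The share was 12.9% over all tested genes and 16.0% over those with at least 10 CPM. KRAB genes had more fingers and lower levels than the other members, and calls rose with level, so finger number and level were not separated. Across members, the log2 fold change had a Spearman correlation of 0.17 with the number of fingers (204 genes), -0.23 with mean CPM (208 genes), 0.14 with transcript length and -0.11 with GC content (206 genes). Genes share libraries and are not independent, and these are descriptions. Over all tested genes with at least 10 CPM the correlation was -0.17 with mean CPM (9764 genes), 0.11 with length and 0.16 with GC content (9281 genes).

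The members with the highest level per kilobase of canonical transcript were ZNF703 (39.2 CPM per kb), ZNF580 (30.3), ZNF207 (29.9), ZNF655 (29.4) and ZNF384 (28.4). ZNF580, a short protein with few fingers, had 35.8 ± 1.10 and 34.1 ± 0.47 CPM (SD, n = 3), and ZNF655, a binding partner of VAV, had 132 ± 3.86 and 133 ± 2.46 CPM. Their log2 fold changes were -0.07 (95% interval -0.24 to 0.10) and 0.01 (95% interval -0.09 to 0.12). At the level limit, the members just inside were ZNF827 (mean 10.2 CPM, log2 fold change 0.42) and ZNF880 (10.2 CPM, -0.07), and the genes just outside were ZNF772 (9.97 CPM, 0.37) and ZNF611 (9.78 CPM, 0.13).

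The 211 tested ZNF genes under that limit had 0 lower and 3 higher (1.42%, beside 12.9% of all tested genes, which include higher levels), with a median log2 fold change of 0.04. These were ZNF44 (4.51 ± 0.25 to 7.94 ± 1.10 CPM, log2 fold change 0.81), ZNF385A, an RNA binding regulator of p53 targets (4.95 ± 0.87 to 8.36 ± 1.27 CPM, 0.76), and ZNF79 (3.11 ± 0.37 to 4.91 ± 0.33 CPM, 0.66). Of 51 expressed genes of the ZBTB, ZFP, ZKSCAN, ZSCAN and PRDM names, 3 were lower and 1 higher (7.84%, beside 16.0% of all tested genes with at least 10 CPM). The lower were ZBTB33 (log2 fold change -0.26), the methyl-CpG reader Kaiso, ZFP91 (-0.15), a ubiquitin ligase, and ZFP36L1 (-0.22), which has CCCH fingers and promotes mRNA decay, and the higher was ZBTB18 (0.26), a neural repressor.

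Of the KRAB corepressor and H3K9 methylation machinery, 3 of 29 tested genes were called (10.3%, below the 12.9% of all tested genes), with a median log2 fold change of -0.03. CBX3, the HP1 gamma protein, had 251 ± 5.18 CPM in KO libraries and 227 ± 5.52 CPM after re-expression (log2 fold change -0.14, adjusted p = 0.047). DNMT3B, a de novo DNA methyltransferase, had 17.9 ± 2.27 and 26.2 ± 1.40 CPM (0.55, adjusted p = 0.00062), and CHD3, a remodeler of the NuRD complex, had 132 ± 9.74 and 157 ± 3.69 CPM (0.25, adjusted p = 0.0021). The central corepressor TRIM28 had 343, 364 and 390 CPM in KO libraries and 340, 345 and 333 CPM after re-expression, with overlapping groups and a log2 fold change of -0.11 (95% interval -0.21 to -0.0040, adjusted p = 0.18). SETDB1 had 32.0 ± 1.45 and 31.0 ± 2.12 CPM (-0.04, adjusted p = 0.81). EHMT2, ATF7IP2 and ZFP57 had no count in any library and DAXX had at most 4, so they were not tested. ZFP57, EHMT2 and DAXX lie on chromosome 6 between 29672483 and 33323016. Whether alignment or counting missed reads there was not tested, so these counts do not show that the RNA was absent.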

How the data were processed

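Poly(A) RNA of 6 T98G libraries (3 CBX8 KO, 3 WT CBX8 re-expression) was sequenced as 100 bp paired-end reads. Per the labels and methods, the authors used Trimmomatic for trimming and HISAT2 for alignment to hg38, and deposited a table of raw, unnormalized counts by gene symbol. The counting program, annotation and strand setting are not given in the sources used here. The deposited counts ranged from 7950190 to 8659796 per library, and intervals cover counting error and library spread as estimated by the fit. Libraries of one condition differed by more than sampling noise (chi-square per degree of freedom 2.05 to 3.09), so all were kept.

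In R 4.3.3 with edgeR 4.0.16, genes were kept by filterByExpr (14461 genes), scaled by TMM and compared by glmQLFit and glmQLFTest with condition as the only term. P-values were adjusted by Benjamini-Hochberg with a threshold of FDR < 0.05, as the study's methods state. Standard errors were the log2 fold change over the square root of F, without sign. The fit was tested on simulated data. Members were chosen with plain CPM (count over column total). The members, gene lists and tests were chosen with earlier results of these data known. Genes named are CBX8, up to 10 lowest and 10 highest called members without overlap, list members, the 5 highest per kilobase and the 2 on each side of the level limit. Any other name was chosen after its values were seen.

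GENCODE release 44 (hg38) gave positions for 206 of the 208 and coding sequences for 204. A KRAB A box was taken as at least 12 of 21 conserved positions, and a finger as C-X2-4-C-X12-H-X3-5-H. The alternatives tried were 3 other scalings (RLE, upper quartile, library size only), DESeq2 1.42.0, limma voom (limma 3.58.1), glmQLFit with legacy set to FALSE, other filters and limits, a GC and length correction (available for 87.2% of tested genes), a block for the replicate number, and fits without each library in turn.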

Additional observations from a re-analysis of the deposited data

How the results depend on the processing

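Scaling by library size only, which moved the median of all tested genes by 0.055, gave 5 lower and 11 higher expressed ZNF genes and a median log2 fold change of 0.052, and 29.7% of all calls were then lower (592 lower, 1400 higher) against 51.6%. DESeq2 gave 5 lower and 4 higher, the GC and length correction 15 lower and 9 higher, FDR < 0.01 4 lower and 3 higher, and a minimum of 1.5-fold 0 lower and 1 higher. Over all genes DESeq2 gave 695 lower and 502 higher, and the GC and length correction 1139 and 948. The edgeR fit used above gave 959 and 901. A limit of 20 CPM moved the median of the ZNF genes to -0.030. Without members whose exons overlap another gene, 4 were lower and 0 higher, with a median of -0.030. Leaving out each library gave 4 to 8 lower, 3 to 6 higher and medians of -0.026 to 0.0093. The cause was not tested. Same-numbered libraries did not deviate together (correlations -0.16, -0.23 and -0.13 over 9768 genes). With so few libraries a group, these values cannot exclude that the samples were paired. With the replicate number as a block, 7 were lower and 5 higher, all 12 shared with the 16, and over all genes 766 were lower and 739 higher. Over 272 refits of called members, 215 kept the call, 57 lost it and 0 changed sign. Values near 0 changed sign for ZNF655 (-0.00083 without the count filter, -0.012 to 0.029 without 1 library), ZNF880 (-0.15 to 0.012 without 1 library), ZNF592 (0.025 by library size only, -0.084 to 0.0051 without 1 library) and ZNF93 (0.042 by library size only, 0.046 with the GC and length correction, with or without the block, -0.069 to 0.017 without 1 library). CBX8 ranged from 8.15 to 8.27. The widest 95% interval of a member reached 0.32 on each side.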
